A study of Homo sapiens with 8 samples.

Results

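The genes of the EGFR receptor family and their ligands were examined in ATAC-seq peak lists of human lung cancer cell lines. The set held 10 of the 20037 protein-coding genes in the gene table. These were the 4 receptors EGFR, ERBB2, ERBB3 and ERBB4 and the 6 ligands AREG, EREG, EPGN, TGFA, HBEGF and BTC. For each gene, every listed peak that overlapped the gene or the 50 kb on either side of it was taken. ATAC-seq marks open chromatin by letting a transposase cut and tag accessible DNA, and a peak is a stretch where such cuts are dense. The data came from 8 samples of H1975 and HCC44, established non-small cell lung cancer lines whose genotype was labelled WT in every sample. H1975 is known for an activating EGFR mutation. Treatment lasted 96 h and was either the solvent DMSO or ACBI1, a compound that leads to degradation of SMARCA2 and SMARCA4, the motor subunits of the SWI/SNF chromatin remodelling complexes, and of their partner PBRM1. The labels give the ACBI1 dose as 1 mM, which is high for a degrader. Each of the 4 groups had 2 replicates. Nothing in the labels says that replicates came from separate cultures, so the spread between them may be technical.

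ERBB receptors are tyrosine kinases of the cell surface that work in pairs and signal through the RAS–MAPK and PI3K–AKT pathways. All 6 ligands are made as membrane-bound precursors, are released by proteases and bind EGFR, and EREG, HBEGF and BTC also bind ERBB4. ERBB2 has no known ligand of its own, ERBB3 has little kinase activity, and both act mainly as partners of the other receptors. In lung adenocarcinoma EGFR is a well-known driver and drug target, and AREG, EREG and TGFA are known autocrine growth factors of the airway epithelium.

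The DMSO lists held 43525 and 41027 peaks in H1975 and 50347 and 49945 in HCC44, and the ACBI1 lists held 27682 and 22133 in H1975 and 26313 and 24862 in HCC44. Read numbers were not given, so the depth is unknown. A peak list depends on depth and on signal over background, so a missing peak is not a measurement of closed chromatin, and a bulk sample does not show whether fewer cells were open at a site or each cell was open less often. Of 10 lung epithelial markers, 7 had a peak at a gene boundary in all 8 samples. SFTPB, a surfactant protein gene, had one only in the HCC44 DMSO samples, and NKX2-1, a lung lineage factor, had one in all 4 H1975 samples and in 1 of 4 HCC44 samples. The endothelial markers PECAM1, CDH5 and VWF and the leukocyte marker PTPRC had none in any sample, whereas CD14 and the fibroblast marker COL1A1 had one in all 8.

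With DMSO, EGFR, ERBB2 and ERBB4 had more peaks around them in HCC44 than in H1975, and AREG and EREG had fewer. Around EGFR both H1975 DMSO samples had 12 peaks and both HCC44 DMSO samples had 15. ERBB2 had 8 and 9 peaks in H1975 against 13 and 13 in HCC44. ERBB4 had none in H1975 against 4 and 4 in HCC44. For these 3 receptors the lines did not overlap. The ligands AREG and EREG lay the other way, again with no overlap. The samples of H1975 had 5 AREG peaks each and those of HCC44 had 3, and EREG had 6 and 7 against 5 and 5. ERBB3, EPGN, TGFA, HBEGF and BTC overlapped or met between the lines, with mean differences between -0.5 and 0.5 peaks.

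Thus 3 of 10 genes had more peaks in both HCC44 samples than in both H1975 samples, beside 36.9% of all protein-coding genes with a peak, and 2 had fewer, beside 17.1%. The median difference was 0 peaks over the 10 genes and 0.5 over all genes. Within a line pair, an exact permutation test has 6 arrangements and cannot give a two-sided p under 0.333, so these orders are descriptions. The HCC44 DMSO lists were the longer ones. With each list limited to its 22133 strongest peaks by −log10 q, EGFR (11 and 10 in H1975, 11 and 11 in HCC44) and ERBB2 (5 in all 4 samples) no longer separated the lines. At that length 2 of the 10 genes had more in HCC44 (ERBB4 and BTC, beside 19.2% of all genes) and 2 had fewer (AREG and EREG, beside 26.5%). When only peaks with a −log10 q of at least 20 were counted, EGFR had fewer in HCC44, with a mean difference of -1.0. Within 10 kb of the gene the difference for ERBB2 was -1.0, and AREG and EREG no longer separated the lines. Counted as base pairs under peaks in place of peaks, 9 of the 10 genes were higher in HCC44 and none lower (the exception was AREG). Peaks were wider in the HCC44 DMSO lists (medians of 634 and 671 bp, against 551 and 510 bp in H1975). The share of all genes is not given for this measure, so nothing particular to these genes is read from it.

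**Figure D1:**
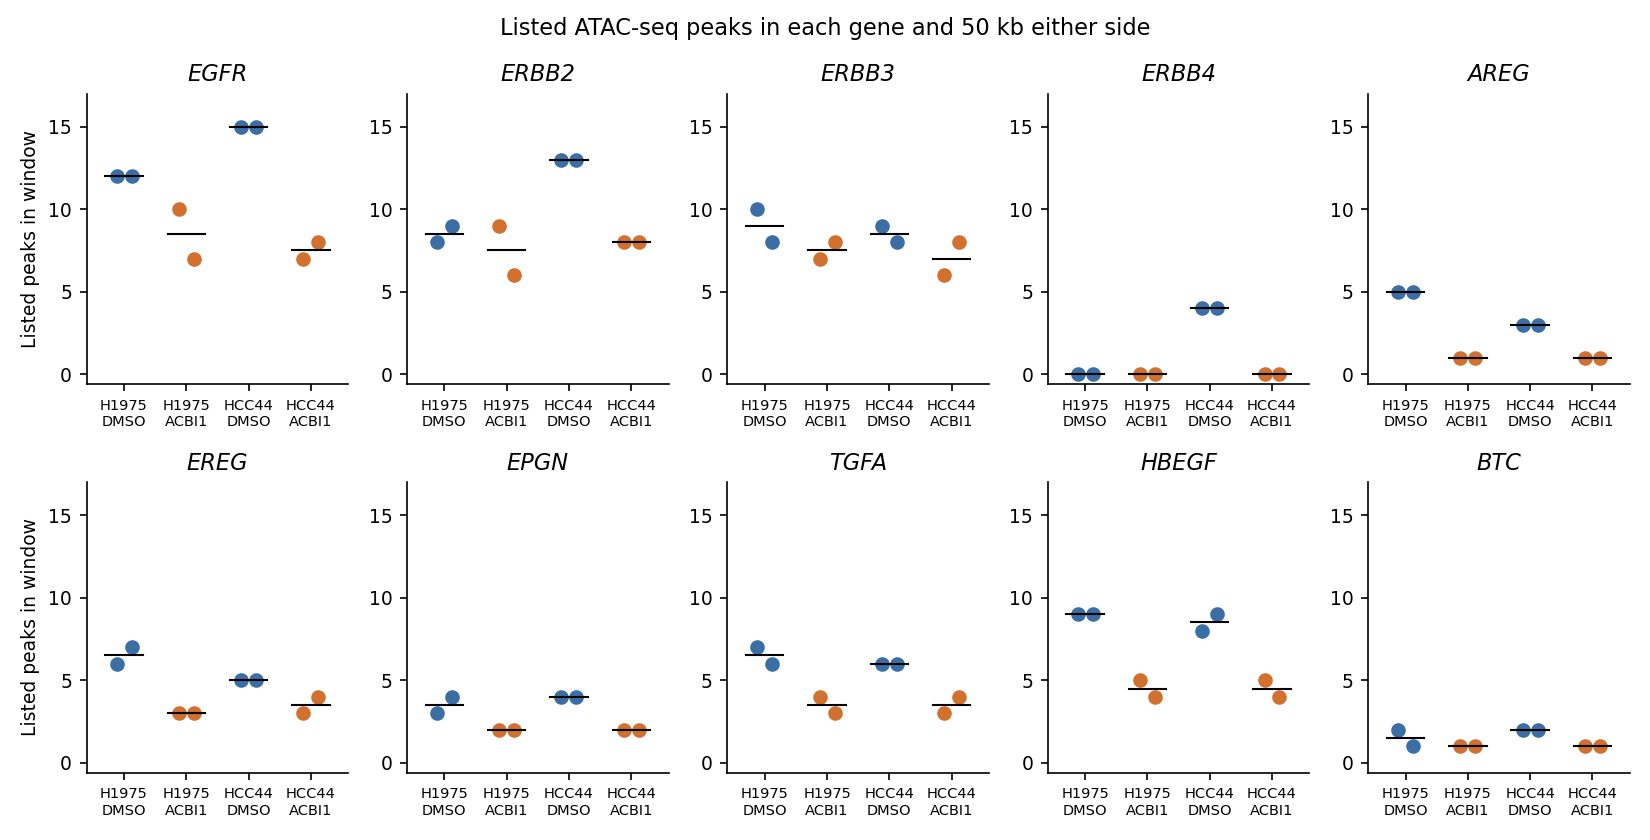
Number of listed peaks overlapping each gene and 50 kb on either side (vertical axis) in the 4 groups. Dots are samples and the line is the mean of 2 replicates. EGFR has 12 peaks in both H1975 DMSO samples and 15 in both HCC44 DMSO samples, and between 7 and 10 in the 4 ACBI1 samples.

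With ACBI1, fewer peaks were listed around most of these genes, and around none were more listed in both replicates. EGFR went from 12.0 ± 0.0 to 8.5 ± 2.12 peaks in H1975 (mean ± SD, n = 2) and from 15.0 ± 0.0 to 7.5 ± 0.707 in HCC44 (n = 2). AREG kept a single peak in each of the 4 ACBI1 samples, against 5 in both H1975 DMSO samples and 3 in both HCC44 DMSO samples. In H1975, HBEGF counts were 9 and 9 under DMSO against 5 and 4 under ACBI1, and in HCC44 they were 8 and 9 against 5 and 4. In none of these 3 genes did the treatment groups of a line overlap.

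In H1975, 6 of the 9 genes with a peak had fewer in each ACBI1 sample than in any DMSO sample, namely EGFR, AREG, EREG, EPGN, TGFA and HBEGF. Among all protein-coding genes with a peak the share was 49.5%. In HCC44, 9 of 10 had fewer, all but ERBB3, beside 62.4% of all genes. None of the 10 had more peaks with ACBI1 in either line, beside 1.65% of all genes in H1975 and 2.03% in HCC44. In both lines 6 of the 10 had fewer, beside 37.5% of all genes. The median difference was -3.0 peaks over the 9 genes and -1.0 over all genes in H1975, and -2.25 against -1.5 in HCC44. With DMSO the 10 genes had a median of 6.5 peaks in H1975, against 4.5 over all genes, and 5.5 against 5.0 in HCC44.

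Over both lines, an exact permutation test, two-sided, with treatment labels permuted within each line gave p = 0.0556 for EGFR, AREG, EREG, EPGN, TGFA and HBEGF. That is the smallest value the 36 arrangements of this exact permutation test can give, and 6838 of 18150 genes reached it (Benjamini-Hochberg adjusted p = 0.147). The exact p was 0.167 for ERBB2 and BTC, 0.222 for ERBB3 and 0.333 for ERBB4.

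The calls of fewer peaks depended on list length. The ACBI1 lists were shorter than the DMSO lists of their line, so equal length removes more peaks from DMSO lists by construction. The cause of the lower counts was not tested. At equal list length, 3 genes still had fewer in H1975 (EGFR, AREG and EREG, beside 13.4% of all genes) and 3 had more (ERBB2, ERBB3 and HBEGF, beside 28.5%). In HCC44, 3 had fewer at equal length (EGFR, ERBB4 and BTC, beside 15.1%) and 1 had more (ERBB2, beside 36%). At that length EGFR had 11 and 10 peaks against 8 and 7 in H1975, and 11 and 11 against 6 and 6 in HCC44. It was the only one of the 10 with fewer in both lines. The share of all genes with fewer in both lines at equal length is not given here. Nothing particular to EGFR is therefore read from this.

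At the level of single sites, peaks that overlapped by at least 1 bp were merged into regions within each line. A region is called lost when both DMSO samples and neither ACBI1 sample had a peak, retained when all 4 had one, and gained in the reverse of lost. In H1975, 49 regions around the 10 genes were listed in each DMSO sample. Of these, 13 were lost (26.5%, beside 37.2% of all such regions) and 31 were retained (63.3%, beside 52.0%). In HCC44, 61 regions were listed in each DMSO sample, of which 23 were lost (37.7%, beside 49.2%) and 33 were retained (54.1%, beside 44.6%). No region around these genes was gained in either line, beside 1.35% of all merged regions in H1975 and 2.28% in HCC44. At equal list length 4 were gained in H1975 and 6 in HCC44, and the share over all regions at that length is not given here. Regions are not replicates and neighbouring ligand genes on chromosome 4 share some, so these shares are given without a test.

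The lost regions lay almost wholly away from gene starts. Of 15 regions at an annotated start of a protein-coding gene, 0 were lost in H1975 and 1 was lost in HCC44, beside 2.10% and 4.23% of all start regions. Away from starts 13 of 34 were lost in H1975 (38.2%, beside 48.1%) and 22 of 46 in HCC44 (47.8%, beside 60.7%). The lost region at a start belonged to a shorter EGFR transcript and is described with that gene. Lost regions were narrower than retained ones. Their median width was 270 bp in H1975 and 667 bp in HCC44, whereas retained regions had medians of 1079 bp and 1307 bp. Over the whole genome the medians were 389 and 592 bp for lost regions and 995 and 1134 bp for retained ones. A retained region spans merged peaks of DMSO and ACBI1 lists, and a lost region only those of DMSO lists. The definition alone can therefore make retained regions wider.

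**Figure D2:**
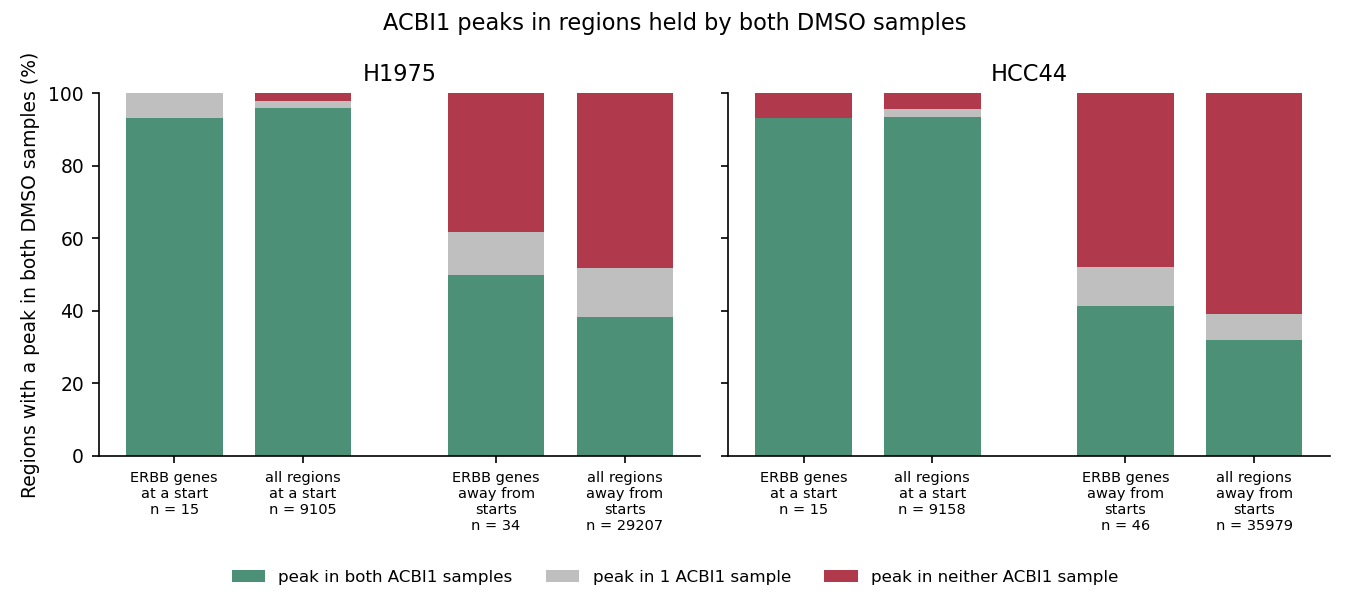
Share (%) of the regions listed in each DMSO sample of a line that were lost, retained or held by 1 ACBI1 sample, around the 10 genes and over all regions, by line and by position. Away from starts, 38.2% of these regions around the 10 genes were lost in H1975 and 47.8% in HCC44, against 48.1% and 60.7% over all regions. At starts the shares were 0% and 6.67%, against 2.1% and 4.23%.

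When the lists of the 8 samples were merged together, 80 regions lay around the 10 genes, and 27 of them had a peak in every sample. Over the genome 15072 of 69131 regions had a peak in every sample. Of the 41 regions around the 10 genes with a peak in all 4 DMSO samples, 6 were lost in both lines and 27 were retained in both. Over the genome 25.1% of such regions were lost in both lines and 51.8% were retained in both. Of the 6, EGFR and HBEGF had 2 each, EPGN had 1, and 1 lay between EREG and AREG.

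EGFR encodes the receptor that binds all 6 ligands. The gene lies at chr7:55019017-55211628 (GRCh38), with 192.6 kb from end to end. Of its 17 regions 11 lay in the gene, and 6 had a peak in all 8 samples. One of the 6 was the region at the gene start, chr7:55018699-55020759. In H1975 the start peak spanned 1690 and 1696 bp under DMSO against 1677 and 1571 bp under ACBI1, and the HCC44 widths were 2020 and 2012 against 1728 and 1696 bp. The authors' fold enrichment of this peak in H1975 was 6.69 and 6.76 under DMSO against 6.33 and 6.66 under ACBI1, and in HCC44 it was 5.06 and 4.95 against 4.45 and 4.21. Fold enrichment was made separately for each list, and no change is read from it.

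Each peak was also ranked within its own list by −log10 q, as a percentile in which 100 would be the strongest peak. The ACBI1 lists were shorter, so a percentile can be lower where the rank is better. The BTC start peak, for example, ranked 10724 (percentile 75.4) in H1975 DMSO replicate 1 and 8724 (percentile 68.5) in H1975 ACBI1 replicate 1. No change is therefore read from percentiles of different lists. The EGFR start peak stood at the 87.0 and 85.9 percentiles in the H1975 DMSO lists and at 73.2 and 61.5 under ACBI1. In HCC44 it stood at 86.6 and 90.6 against 66.7 and 71.3. Deeper in the gene, a region 114 kb downstream of the start (chr7:55132669-55134133) ranked between 90.3 and 99.5 in the 8 lists. That was higher than the start peak in every list. A region 167 kb downstream (chr7:55185459-55186546) was also listed in all 8 samples, at 97.3, 97.0, 80.4 and 68.5 in H1975 and at 97.7, 96.4, 27.2 and 21.7 in HCC44, with the DMSO values first. Past the end of the gene, a region at the start of the non-coding RNA gene ELDR (chr7:55254504-55256006) ranked between 94.9 and 98.8.

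Upstream of EGFR, 2 regions were lost in both lines. One lay 49.4 kb before the start (chr7:54969235-54969922). The other lay 23.0 kb before it (chr7:54995523-54996558), at an annotated start of the non-coding gene LOC105375284, with percentiles of 68.8 and 49.1 in H1975 and 77.8 and 83.2 in HCC44. Between them, a region 33.2 kb before the start (chr7:54985389-54986246) was retained in H1975, at 94.7 and 89.8 under DMSO against 58.5 and 27.6 under ACBI1. In HCC44 its DMSO peaks ranked at 90.7 and 88.0, and the ACBI1 lists had none.

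EGFR also differed between the lines with DMSO. A region of 231 bp 33.3 kb downstream of the start (chr7:55052193-55052423) was listed only in the H1975 DMSO samples, at 57.6 and 64.4. A region 29.5 kb downstream (chr7:55048284-55048693) was listed only in the HCC44 DMSO samples, at 59.3 and 65.4. HCC44 had 3 further regions of its own, 174, 194 and 227 kb from the start, all at or below the 16.2 percentile. The one at 194 kb (chr7:55212379-55213685), just past the end of the gene, was the only one of the 4 that was retained with ACBI1. In all, 3 regions around EGFR were lost in H1975 and 7 in HCC44.

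**Figure D3:**
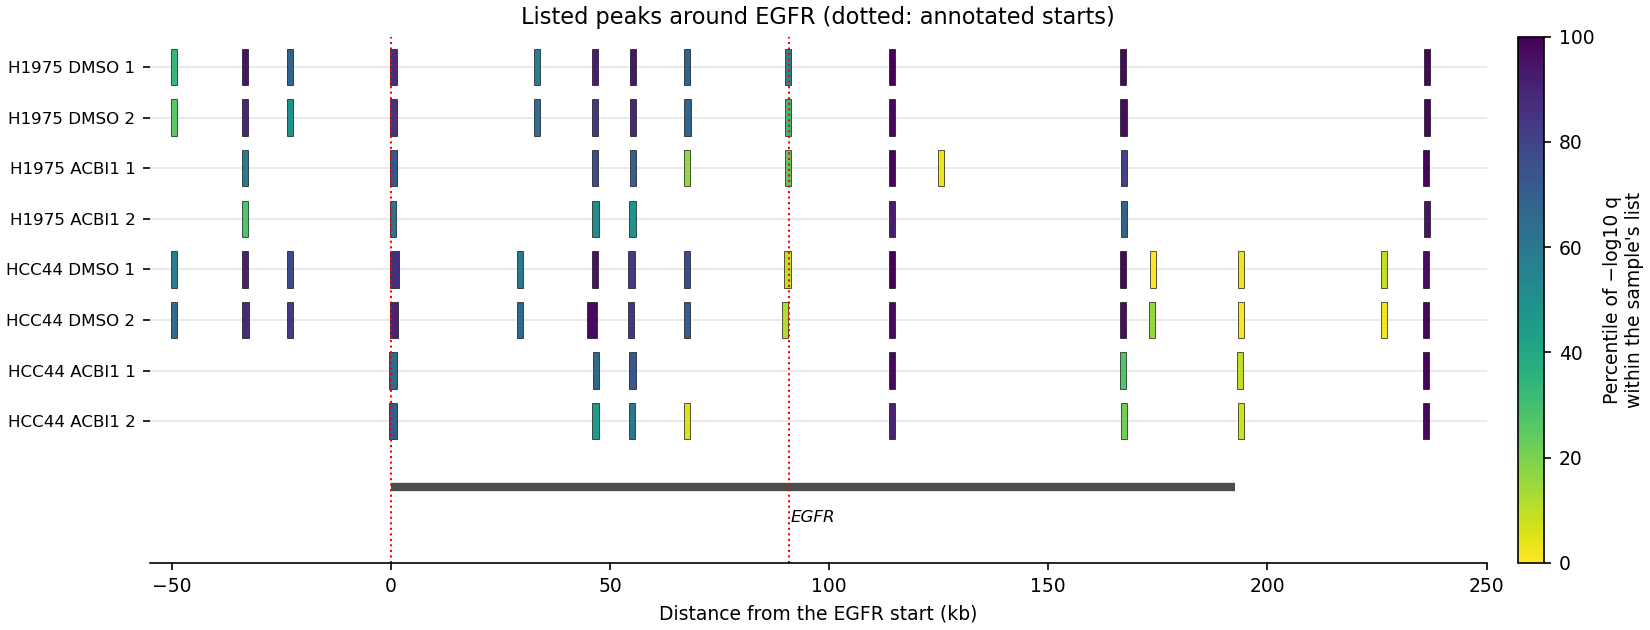
Listed peaks around EGFR in the 8 samples, by distance in kb from the annotated gene start. Boxes are peaks, drawn at a minimum width so that narrow ones can be seen and coloured by their percentile of −log10 q within their own list; the grey bar is the gene and dotted lines are annotated starts. The peak 114 kb downstream is in all 8 rows at the 90.3 to 99.5 percentiles, and the peaks 49.4 and 23.0 kb upstream appear only in the DMSO rows.

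The annotated starts of EGFR differ in sequence as well as in their peaks. The upstream 250 bases of both are printed here from RefSeq (GRCh38.p14, plus strand) because the outer one had a peak in all 8 lists and the inner one did not. Capitals mark matches to 4 searched motifs, on either strand: the AP-1 site TGANTCA, the TATAAA element, the GC box GGGCGG and the CCAAT box.
EGFR outer start, chr7:55018767-55019016: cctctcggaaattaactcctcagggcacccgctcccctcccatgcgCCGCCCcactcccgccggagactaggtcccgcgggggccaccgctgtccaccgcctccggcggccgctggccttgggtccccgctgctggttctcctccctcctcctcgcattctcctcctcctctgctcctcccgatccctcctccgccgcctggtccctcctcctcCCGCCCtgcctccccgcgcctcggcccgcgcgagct
EGFR inner start, chr7:55109589-55109838: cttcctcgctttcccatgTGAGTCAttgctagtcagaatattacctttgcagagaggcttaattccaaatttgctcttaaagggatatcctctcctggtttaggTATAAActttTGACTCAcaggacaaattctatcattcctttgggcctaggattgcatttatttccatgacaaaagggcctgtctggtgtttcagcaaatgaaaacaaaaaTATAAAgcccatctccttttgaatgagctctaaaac

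The outer sequence was 73.6% G and C and held 2 GC boxes. The inner one was 38.8% G and C and held 2 AP-1 matches, TGAGTCA and TGACTCA, whose first bases lie 232 and 136 bases before the start. It also held TATAAA 146 and 36 bases before it. At least 1 AP-1 match was found in 7.71% of the 35116 promoter windows of 300 bases in the table, and at least 2 in 0.515%. The region beside the inner start (chr7:55108146-55109737) had a peak in both H1975 DMSO samples, in H1975 ACBI1 replicate 1 and in both HCC44 DMSO samples. Its percentiles were 55.0, 31.7 and 24.5 in H1975 and 9.09 and 11.9 in HCC44, and its widths were 343, 276, 283, 298 and 1495 bp in the same order. The remaining 3 lists, all of ACBI1 samples, had no peak there.

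ERBB2 encodes the receptor without a known ligand, the partner that other members of the family prefer. It lies at chr17:39688094-39728658. Its start region (chr17:39687544-39688673), which also covers the start of the neighbouring gene PGAP3, had a peak in all 8 samples. Percentiles there in H1975 were 70.0 and 77.2 under DMSO against 79.8 and 88.4 under ACBI1, and in HCC44 they were 68.4 and 68.8 against 82.6 and 78.6. The H1975 counts around ERBB2 were 8 and 9 under DMSO against 9 and 6 under ACBI1, so the groups overlapped. In HCC44 they were 13 and 13 against 8 and 8, with no overlap.

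With DMSO, 4 regions around ERBB2 were listed in HCC44 only. Among them were regions in STARD3, 37.7 kb (chr17:39650149-39650562, at 37.2 and 52.7) and 44.9 kb (chr17:39642974-39643497, at 29.1 and 39.7) before the start, both lost with ACBI1. Another, 15.9 kb before the start in PGAP3 (chr17:39672036-39672419, at 23.9 and 22.5), was retained, at 56.3 and 41.6. H1975 alone had a region 18.0 kb into ERBB2 (chr17:39705807-39706321), at 54.9 and 36.7 with DMSO and at 25.8 in ACBI1 replicate 1. The strongest region lost in HCC44 lay 82.1 kb from the start in IKZF3 (chr17:39769969-39770516), at 85.0 and 81.0. No region around ERBB2 was lost in H1975 and 4 were lost in HCC44. With lists of equal length ERBB2 went the other way, from 5 and 5 peaks to 7 and 6 in H1975 and from 5 and 5 to 8 and 8 in HCC44.

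ERBB3, the receptor with a weak kinase that recruits PI3K, was the only one of the 10 genes with a peak whose groups did not separate in either line. It lies at chr12:56080108-56103505 with other gene starts close by. In H1975 its counts were 10 and 8 under DMSO against 7 and 8 under ACBI1, and in HCC44 they were 9 and 8 against 6 and 8. No region around it was lost in either line. Of its 10 regions 6 were listed in all 8 samples, and 5 of the 10 lay at the starts of other genes, among them RPS26, PA2G4 and MYL6B. The remaining one of the 6 lay at the lower end of ERBB3 itself (chr12:56078846-56080839), with percentiles of 92.3, 85.6, 86.2 and 70.3 in H1975 and 94.1, 94.4, 84.6 and 67.4 in HCC44.

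ERBB4, the receptor that binds neuregulins and some EGFR ligands, was listed only in HCC44 with DMSO. The gene is 1163 kb long (chr2:211375717-212538802, minus strand), and no sample had a peak at its start. Its upstream 250 bases are printed because ERBB4 and EPGN were the only genes of the set with a start in the table and no peak there in any list.
ERBB4, chr2:212538803-212539052, minus strand: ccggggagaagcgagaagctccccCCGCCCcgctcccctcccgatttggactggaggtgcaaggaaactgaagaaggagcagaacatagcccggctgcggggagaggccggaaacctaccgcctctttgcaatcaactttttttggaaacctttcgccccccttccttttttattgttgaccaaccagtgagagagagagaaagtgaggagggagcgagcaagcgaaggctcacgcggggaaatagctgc

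The sequence was 57.2% G and C, close to the median of 58.0% over all promoters in the table, and held 1 GC box. All 5 ERBB4 regions lay inside the gene, far from the start. The 3 listed in each of the HCC44 DMSO samples were chr2:212052391-212052825, at 58.5 and 65.7, chr2:211611155-211612024, at 12.4 and 41.8, and chr2:211434925-211435728, at 37.9 and 16.5. All 3 were lost with ACBI1. No ERBB4 window had a peak in any H1975 sample.

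Of the 9 genes with a start in the table, 7 had a peak at a start in all 8 samples, beside 54.4% of the 15843 protein-coding genes in that table. The ligands AREG, EREG, TGFA, HBEGF and BTC were among the 7. ERBB4 and EPGN had none in any sample, as did 34.1% of those genes.

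AREG, EREG and EPGN, the genes of amphiregulin, epiregulin and epigen, lie side by side on chromosome 4 in the same orientation. Their promoters are shown together because the first pair had a start peak in every list and EPGN in none. All are on the plus strand, and capitals mark the same motifs.
AREG, chr4:74444886-74445135: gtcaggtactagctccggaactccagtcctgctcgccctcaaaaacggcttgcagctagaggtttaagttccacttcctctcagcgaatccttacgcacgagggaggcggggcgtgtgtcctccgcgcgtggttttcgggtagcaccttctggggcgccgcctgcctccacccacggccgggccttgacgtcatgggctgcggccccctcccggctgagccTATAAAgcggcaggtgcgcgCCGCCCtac
EREG, chr4:74364895-74365144: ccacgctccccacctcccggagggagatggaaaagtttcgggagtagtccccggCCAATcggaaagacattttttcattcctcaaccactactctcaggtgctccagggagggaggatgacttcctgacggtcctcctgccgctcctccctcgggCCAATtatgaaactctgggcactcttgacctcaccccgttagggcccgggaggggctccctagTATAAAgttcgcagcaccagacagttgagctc
EPGN, chr4:74308220-74308469: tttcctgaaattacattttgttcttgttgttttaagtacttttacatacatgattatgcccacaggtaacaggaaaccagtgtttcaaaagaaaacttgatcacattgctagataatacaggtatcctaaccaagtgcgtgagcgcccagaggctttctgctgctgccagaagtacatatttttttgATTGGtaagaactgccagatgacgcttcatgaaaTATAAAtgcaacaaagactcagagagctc

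All 3 held TATAAA, beginning 29 bases before the start in AREG, 32 in EREG and 29 in EPGN. TATAAA was found in 11.5% of all promoter windows. AREG had 1 GC box, EREG had 2 CCAAT matches and EPGN had 1. The share of G and C was 65.2% in AREG, 58.0% in EREG and 38.0% in EPGN. A match is a description of the letters only.

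AREG, a ligand often raised in airway epithelium, lies at chr4:74445136-74455005. Its start region (chr4:74444906-74445778) was the only one of its 6 regions with a peak in any ACBI1 sample. The percentiles there were 70.6, 76.5, 75.0 and 74.3 in H1975 and 67.2, 53.2, 66.6 and 76.8 in HCC44, DMSO first. A region 26.8 kb before AREG and 53.2 kb after the EREG start (chr4:74417979-74418645) was lost in both lines. It stood at 68.7 and 50.4 in the H1975 DMSO samples and at 78.2 and 73.3 in those of HCC44. H1975 alone had regions with DMSO at chr4:74408696-74408965, at 60.3 and 60.1, and at chr4:74446559-74446798 inside AREG, at 33.2 and 36.7. Both were lost with ACBI1.

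EREG, a ligand of EGFR and ERBB4, lies at chr4:74365145-74388749. Its H1975 counts were 6 and 7 under DMSO against 3 and 3 under ACBI1, and its HCC44 counts were 5 and 5 against 3 and 4. The groups of each line did not overlap. Its start region (chr4:74364423-74366083), a region 10.1 kb into the gene (chr4:74374443-74375986) and one 44.8 kb before it (chr4:74319537-74321087) were listed in all 8 samples. A region 29.7 kb from the start, past the end of the gene (chr4:74394652-74395118), was lost in H1975. In HCC44 it had peaks in both DMSO samples, at 46.7 and 62.2, and in ACBI1 replicate 2, at 33.3.

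EPGN, which binds EGFR with low affinity, lies at chr4:74308470-74316789. It had no peak inside the gene in any list. Around it, the H1975 counts were 3 and 4 under DMSO against 2 and 2 under ACBI1, and the HCC44 counts were 4 and 4 against 2 and 2. The 2 regions that were retained in both lines were those shared with the EREG window. A region 40.0 kb before EPGN in MTHFD2L (chr4:74268010-74268849) was lost in both lines, at 1.82 and 0.297 in H1975 and at 54.1 and 61.6 in HCC44 with DMSO. A second, 24.6 kb before the start (chr4:74283349-74284397), was listed only in HCC44 with DMSO, at 85.7 and 74.4, the highest ranks of the HCC44-only regions around these genes.

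**Figure D4:**
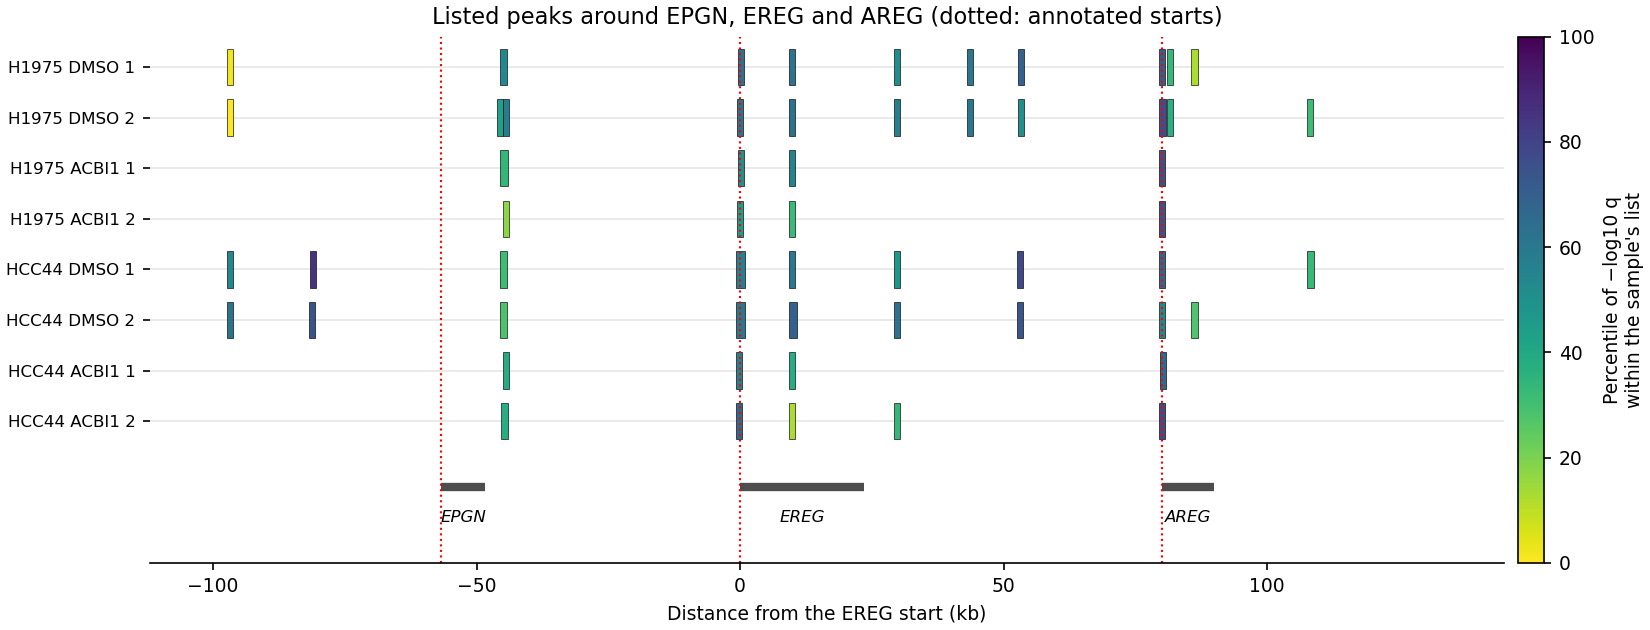
Listed peaks around EPGN, EREG and AREG on chromosome 4 in the 8 samples, by distance in kb. Boxes are peaks, drawn at a minimum width and coloured by percentile of −log10 q within their own list; grey bars are genes and dotted lines annotated starts. The AREG and EREG starts have a peak in all 8 rows, and EPGN has none at its start. Of the peaks between EREG and AREG, the one 53.2 kb after the EREG start is in the 4 DMSO rows only.

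TGFA encodes transforming growth factor alpha, an autocrine EGFR ligand, and lies at chr2:70447284-70553826 on the minus strand. Its start region (chr2:70552704-70554474) ranked between 89.0 and 98.1 in the 8 lists. Counts in H1975 were 7 and 6 under DMSO against 4 and 3 under ACBI1, and those in HCC44 were 6 and 6 against 3 and 4, with no overlap in either line. A region 42.9 kb before the start (chr2:70596318-70597114) was listed in all 8 samples. It stood at 81.1, 72.3, 49.5 and 15.3 in H1975 and at 94.3, 95.6, 48.0 and 11.0 in HCC44. H1975 alone had regions 82.5 kb downstream of the start (chr2:70471249-70471454) and 111 kb downstream (chr2:70442381-70442639), and both were lost. HCC44 alone had one 37.1 kb downstream (chr2:70516343-70517051), at 49.6 and 54.5, which was also lost. A region 16.2 kb before the start (chr2:70569683-70570461) was lost in HCC44, where it stood at 48.3 and 56.6, and was listed in H1975 only in DMSO replicate 1, at 2.1.

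HBEGF encodes heparin-binding EGF-like growth factor and lies at chr5:140332843-140346603 on the minus strand. Its start region (chr5:140344773-140346930) had percentiles of 76.6, 91.6, 89.6 and 83.3 in H1975 and 62.3, 59.1, 76.0 and 81.2 in HCC44. Past its end, 2 regions were lost in both lines, one 35.0 kb from the start (chr5:140310604-140312523) and one 48.2 kb from it in PFDN1 (chr5:140298252-140298539). The first stood at 39.1 and 15.8 in H1975 and 47.3 and 49.0 in HCC44. A further region in PFDN1 (chr5:140295472-140295697), at 46.1 and 47.3, was listed in H1975 with DMSO only. In HCC44 a region 23.1 kb from the start (chr5:140322785-140324308) was also lost, at 57.3 and 55.0. At equal list length HBEGF had more peaks with ACBI1 than with DMSO, by 1.5 on average in each line, without overlap between the groups in H1975 and with overlap in HCC44.

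BTC, the gene of betacellulin, had the fewest peaks of the ligands. It lies at chr4:74744759-74794523 on the minus strand, and all its peaks fell into 2 regions. The start region (chr4:74793812-74794913) was listed in all 8 samples, at 75.4, 74.0, 68.5 and 36.7 in H1975 and at 90.8, 86.4, 79.1 and 88.1 in HCC44. The other lay 25.3 kb into the gene (chr4:74768948-74769519). It was listed in H1975 DMSO replicate 1 at 3.8 and in both HCC44 DMSO samples at 61.0 and 72.0, and in no ACBI1 sample.

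**Figure D5:**
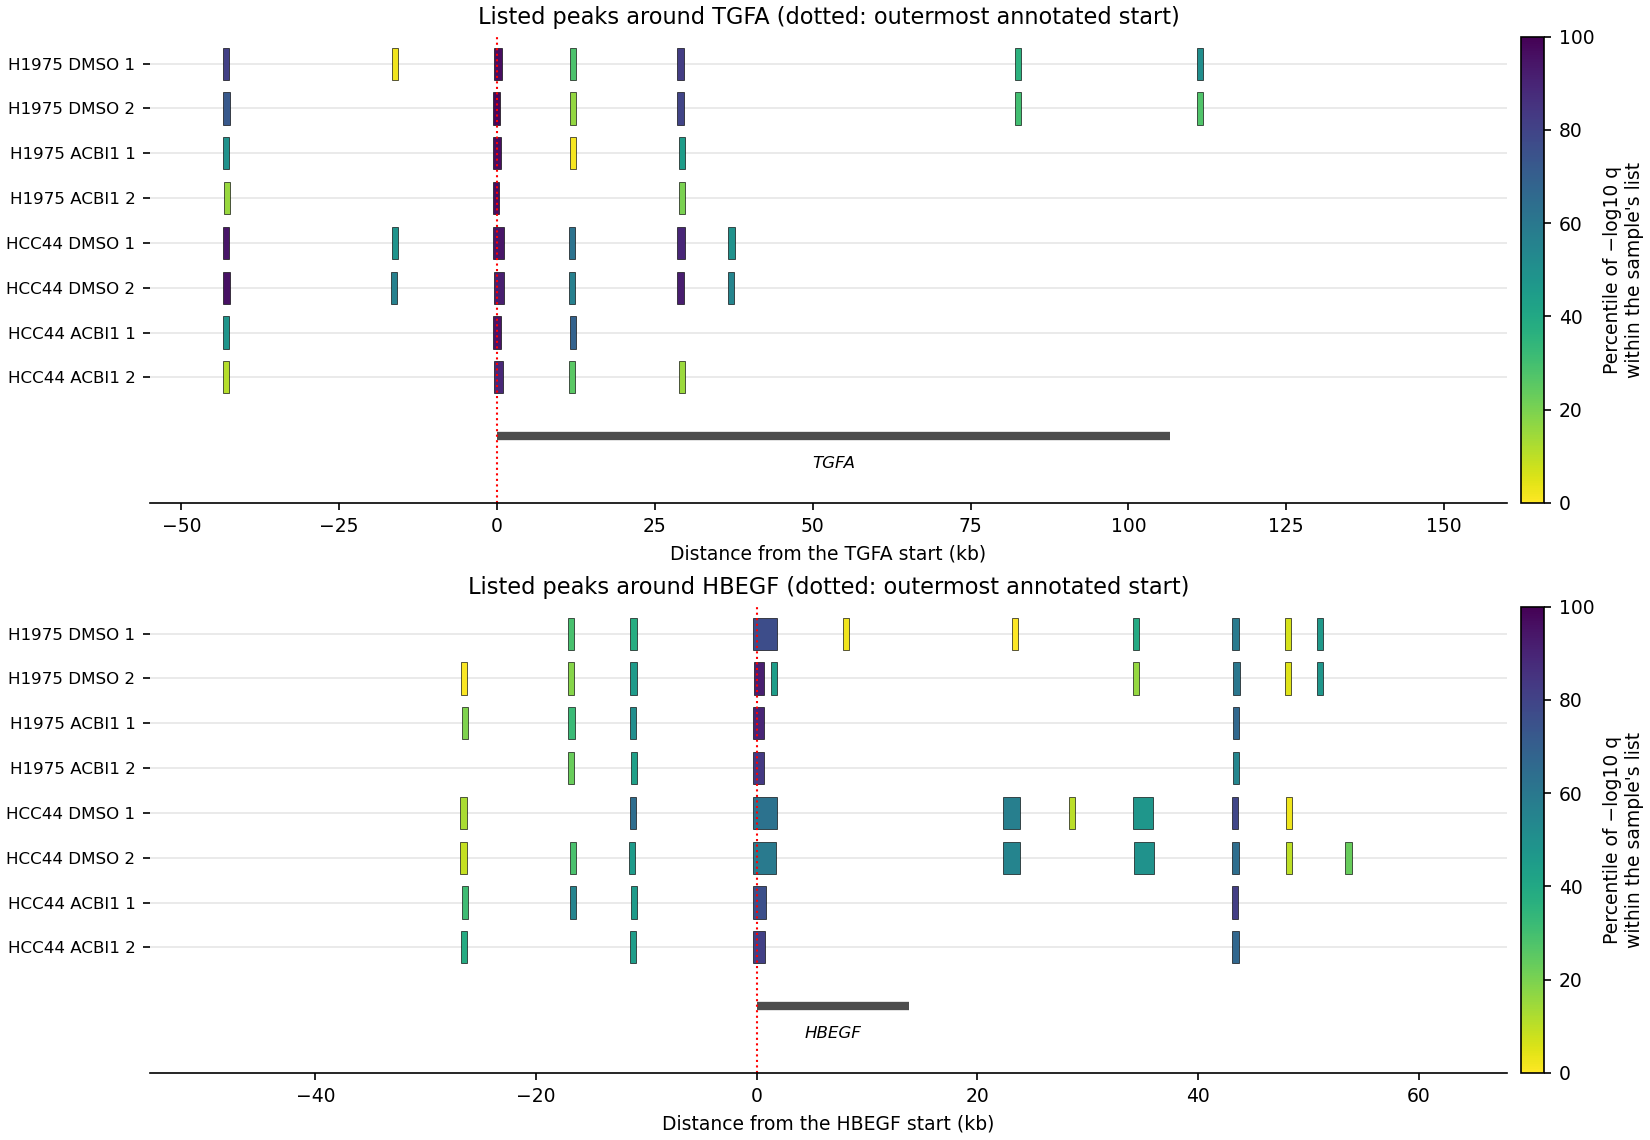
Listed peaks around TGFA and HBEGF in the 8 samples, by distance in kb from the gene start. Boxes are peaks, drawn at a minimum width and coloured by percentile of −log10 q within their own list; grey bars are the genes and dotted lines annotated starts. Both starts have a peak in all 8 rows, and the HBEGF peaks 35.0 and 48.2 kb from the start are in DMSO rows only.

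Among the regions of the 4 DMSO lists merged together, 80 lay around the 10 genes. Of these, 7 were found in H1975 only (8.75%, beside 10.5% of all regions) and 14 in HCC44 only (17.5%, beside 20.1%), and 41 were found in all 4 samples (51.2%, beside 44.5%). When all 8 lists were merged, 1 of the 14, near ERBB2, joined a peak of H1975. Of the 7 H1975-only regions 6 were lost with ACBI1, beside 65.1% of all H1975-only regions, and none was retained, beside 24.4%. Of the other 13 HCC44-only regions 10 were lost, beside 71.4% of all HCC44-only regions, and 3 were retained, beside 21.1%. None of the 20 lay at the start of a protein-coding gene. The share over all line-only regions is not given here, so nothing particular to these genes is read from that count.

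Over 11 promoter windows of 300 bases, from 250 before to 50 after each annotated start of 9 of the genes, GC boxes were found in 6 (45.0% of all promoters), TATAAA in 4 (11.5%), CCAAT in 3 (34.6%) and AP-1 in 2 (7.71%). The AP-1 matches were those at the inner EGFR start and 1 in ERBB2, TGATTCA, beginning 222 bases before its start. HBEGF held 5 GC boxes, of which 2 overlap.

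Other genes of the pathway were counted in the same way from a list of 45, of which 43 had a peak. The neuregulin gene NRG3 and the RAS gene HRAS had none in any sample. In H1975, 29 of the 43 had fewer peaks in both ACBI1 samples, beside 49.5% of all genes, and none had more, beside 1.65%. In HCC44, 35 had fewer, beside 62.4%, and none had more, beside 2.03%. The median difference was -2.0 peaks in H1975, against -1.0 over all genes, and -2.5 in HCC44, against -1.5. With DMSO, 17 had more peaks in HCC44 than in H1975, beside 36.9% of all genes, and 7 had fewer, beside 17.1%. All counts of this pathway list are at full list length, and counts at equal length are not given for it.

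Among the other ligands with a peak, 3 of 4 had fewer with ACBI1 in H1975 (EGF, NRG1 and NRG2), beside 49.5% of all genes. In HCC44 all 4, with NRG4, had fewer, beside 62.4%. NRG1, a ligand of ERBB3 and ERBB4, had counts of 12 and 9 under DMSO against 4 and 2 under ACBI1 in H1975, and of 17 and 18 against 1 and 3 in HCC44. Of the sheddases, ADAM17, which releases AREG, HBEGF and TGFA, had fewer peaks in both lines, as did 37.5% of all genes. ADAM10, which releases BTC, had fewer in HCC44 only. Among adaptors and transducers 13 of 19 had fewer in H1975, where the share of all genes was 49.5%, and 14 of 19 in HCC44, where it was 62.4%. Among feedback inhibitors, read against the same shares, the counts were 8 and 11 of 13. Of 5 transcription factors that act downstream, ETV1, ETV4, ETV5 and FOSL1 had fewer in both lines, beside 37.5% of all genes. The fifth, EGR1, an immediate early gene, had 5 and 6 peaks in the H1975 DMSO samples and 6 in each of the remaining 6 samples.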

How the data were processed

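ATAC-seq was measured in 8 samples, 2 in each of 4 groups. The authors deposited 1 broadPeak list per sample, without a header, so peaks were called per sample. In these lists the fold enrichment is a ratio, and p and q are deposited as −log10 values. The deposited score follows −log10 q and was not used. BWA and hg38 are named in the submitters' processing notes, without a role. The peak caller and its filters are not given in the sources used here, and the depth is unknown. The lowest −log10 q in a list was 10.0 to 10.2 in all 8 lists.

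Gene positions came from RefSeq (GRCh38.p14), and starts with strand from a RefSeq promoter table that holds 15843 of the protein-coding genes. ERBB3 has no entry there. Exons and introns were not analysed here. A gene was called when both samples of one group lay above or below both of the other, and the same call over all genes is given beside it. Exact permutation tests, two-sided, cannot pass 0.05 here. Regions were merged at 1 bp of overlap. Fold enrichment and ranks were made within each list. Values from lists of unlike length are set side by side as descriptions, and no change is read from them. All 10 genes were named. The regions named were each start region and, per line and gene, up to 3 lost, up to 2 gained and up to 2 of 1 line only with the highest mean percentile, and other regions named were chosen after their values were seen. The genes and lists were chosen with earlier results of these data known. Alternatives were a minimum −log10 q of 20, equal list length, joining at 1200 bp, windows of 10 and 100 kb, base pairs covered, 50% cover, a replicate block and fits without each replicate in turn. Functions were tested on simulated data. Computation used Python 3.11.15, numpy 2.4.6, pandas 2.3.3, scipy 1.17.1 and matplotlib 3.10.9.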

Additional observations from a re-analysis of the deposited data

How the results depend on the processing

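With ACBI1, counts of genes with fewer or more peaks depended most on list length. At 22133 peaks per list, 3 genes had fewer and 3 more in H1975, and 3 had fewer and 1 more in HCC44. Lost regions then numbered 6 in H1975 (18.2% of those listed in each DMSO sample) and 10 in HCC44 (28.6%), and gained regions 4 and 6. Shares over all regions at that length are not given here, so nothing particular to these genes is read from them. With windows of 10 kb, 5 genes had fewer in HCC44. Counted as base pairs, 0 genes were lower and 9 higher in HCC44 with DMSO, and with 50% cover 2 regions were gained in HCC44. For windows of 10 kb, base pairs and 50% cover, no share over all genes or regions is given here. Among differences with a call in the main setting, 6 turned. Between the lines these were EGFR (-1.0 at a −log10 q of 20), ERBB2 (-1.0 at 10 kb) and EREG (1394 bp covered). With ACBI1 they were ERBB2 in HCC44 (3.0) and HBEGF in both lines (1.5 in each), all at equal length. Differences without a call could change sign too. At equal length ERBB2 (1.5) and ERBB3 (1.5) in H1975 and ERBB3 (1.0) in HCC44 did so. Of 180 values per gene, 138 kept their call or stayed without one, 20 lost it, 16 gained one and these 6 turned. Leaving out each replicate gave 6 to 8 genes with fewer peaks in H1975, 9 to 10 in HCC44, and 2 to 4 with fewer and 3 to 4 with more between the lines, where 4 had fewer without H1975 DMSO replicate 2. Genes with more peaks stayed at 0 in both lines. Lost regions ranged from 13 to 19 in H1975 and 23 to 28 in HCC44, retained ones from 31 to 36 and 33 to 38, and gained ones from 0 to 2 in H1975 (1 without DMSO replicate 1, 2 without ACBI1 replicate 2) and at 0 in HCC44. With a replicate block, the counts of fewer and more were 6 and 0 in H1975, 9 and 0 in HCC44, and 2 and 3 between the lines. Deviations of same-numbered samples correlated across genes at 0.0694, 0.0285 and -0.00485, so the numbers were not taken to pair the samples. The cause of these moves was not tested, except that equal length removes more peaks from DMSO lists by construction.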
